A study of Mus musculus with 12 samples.

Results

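The genes described here encode the protein subunits of the mitochondrial respiratory chain, complexes I to IV, and of ATP synthase, complex V. They were chosen by symbol (Nduf, Sdh, Uqcr, Cox and Atp5 names), which took 100 mouse symbols, of which 78 had probes on the array. The 78 genes belong to complex I (34), complex II (4), complex III (8), complex IV (15) and complex V (17), among 25128 genes and unnamed targets in all. Of the 22 symbols without a matched target, 16 are pseudogenes and 6 are protein-coding, namely Ndufa4l2, Ndufa11, Ndufb1, Ndufb4b, Ndufb4c and Ndufv2, and they are not analysed here. Each of the 78 genes was read by 3 probes of 1 target.

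RNA came from 3 untreated mouse cell lines, AtT20, a line from a pituitary tumor, BV2, a microglial line, and N18, a neuroblastoma line. All were grown to confluence in DMEM with serum, BV2 under conditions meant to favor its resting state, and 4 separately cultured plates of each line were hybridized to 1 single-color NimbleGen array apiece. A slide carries 4 arrays, and which plates shared a slide is not given in the sources used here, so slide and line cannot be told apart. Each line stands for itself and not for the tissue it came from. In RNA from a whole plate, fewer cells with a transcript and less transcript per cell cannot be told apart.

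The respiratory chain passes electrons from NADH (complex I) and succinate (complex II) through coenzyme Q to complex III, cytochrome c and complex IV, which reduces oxygen. Complexes I, III and IV pump protons across the inner mitochondrial membrane, and complex V lets them flow back to make ATP. The subunits measured here are encoded in the nucleus and imported, and several of complex IV and the c subunit of complex V come from more than 1 gene, some of them best known from muscle or testis.

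The plates labelled AtT20 stood apart before any gene was compared. The middle 50% of their probes spanned 0.38 to 0.78 (log2), while in BV2 it spanned 1.28 to 1.73 and in N18 1.91 to 2.21. Pomc, Tbx19 and Pcsk1, defining markers of corticotrophs, the pituitary cells AtT20 is known for, were below the detection threshold on these plates, with mean levels of 0.29, 0.02 and 0.14. Other corticotroph markers, some of them above the threshold, are not reported here. Microglial markers were above the threshold for 9 of 13 genes in BV2, with Aif1, C1qa, C1qb and C1qc below it, and for 0 of 13 on the plates labelled AtT20 and 2 of 13 in N18. Neuronal markers were above it for 13 of 14 genes in N18, 7 in BV2 and 8 on the plates labelled AtT20. Of all features, 55.4% were above it in N18, 53.3% in BV2 and 35.0% on the plates labelled AtT20. Comparisons of N18 with BV2 therefore come first, and those with the plates labelled AtT20 follow with their limits.

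A level is the log2 intensity of a gene, with its probes averaged on the linear scale, minus the mean of 10 seminal proteins on the same plate, which the study took as zero expression. A gene was above the threshold when its level, averaged over the 4 plates, exceeded 2 SD of the seminal proteins, which came to 0.74 ± 0.10 (SD, n = 4) in N18, 0.56 ± 0.15 in BV2 and 0.37 ± 0.11 for the plates labelled AtT20. Of the 78 genes, 68 were above the threshold in N18 (55.4% of all features), 68 in BV2 (53.3%) and 48 for the plates labelled AtT20 (35.0%). In all 3 lines 44 were above it (25.1% of all features), and 23 were above it in BV2 and N18 but not on the plates labelled AtT20 (21.1%). By complex, in the order AtT20, BV2, N18, the counts were 18, 32 and 32 of 34 for complex I, 3, 4 and 4 of 4 for complex II, 5, 7 and 7 of 8 for complex III, 10, 9 and 10 of 15 for complex IV, and 12, 16 and 15 of 17 for complex V. In complex IV the count was thus about equal in the 3 lines, and in each of the other complexes it was lowest for the plates labelled AtT20. The equal count does not mean equal levels, since the threshold of these plates was the lowest. The median level in complex IV was 0.43 on them, 1.59 in BV2 and 1.35 in N18. All 3 probes were above the threshold for 2, 8 and 7 of its 15 genes in that order (5.38%, 26.7% and 32.4% of features with 3 probes).

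**Figure D1:**
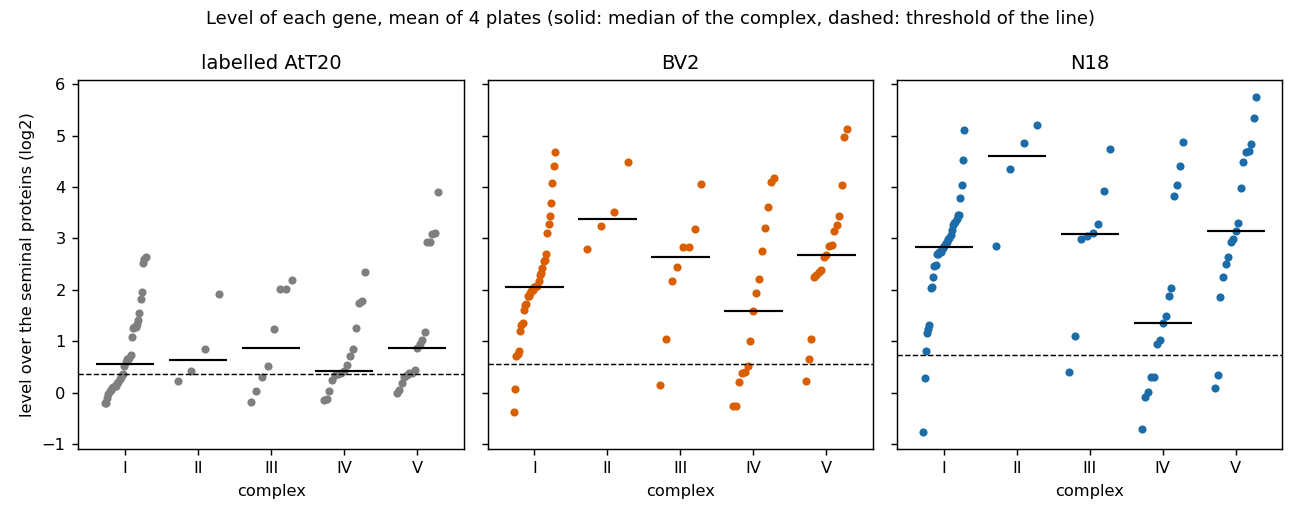
Level of each of the 78 genes over the seminal proteins (log2, mean of 4 plates) by complex, with the median of each complex as a solid line and the threshold of the line dashed. The highest level was 5.76 in N18, 5.13 in BV2 and 3.90 for the plates labelled AtT20, and levels of different genes are not comparable because probes differ in how strongly they bind.

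The median level of the 78 genes was 2.92 in N18, 2.28 in BV2 and 0.53 for the plates labelled AtT20, where the summed level of a plate also varied most (40.3 to 89.5, against 157.9 to 196.3 in BV2 and 200.8 to 234.6 in N18).

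The agreement among the probes of a gene separated the lines further. All 3 probes were above the threshold for 53 of the 78 genes in BV2 and 55 in N18 (26.7% and 32.4% of the 19804 features with 3 probes), but for 13 on the plates labelled AtT20 (5.38%). None of the 3 was above it for 7, 10 and 18 genes in the order BV2, N18, AtT20 (30.3%, 30.8% and 47.8%). Only 1 probe was above it for 9, 2 and 27 genes in that order (24.4%, 20.0% and 32.0%), and 2 probes were for 9, 11 and 20 (18.5%, 16.8% and 14.8%). Such a gene could itself be above or below the threshold. Above the threshold in none of the 3 lines were 6 genes (32.4% of all features). These were Ndufa13 of complex I, Uqcrq of complex III, Cox6b1, Cox7a1 and Cox8c of complex IV, and Atp5g1, which encodes a c subunit of complex V. Cycs, the somatic cytochrome c, was below the threshold in all 3 lines as well, with levels of -0.11, -0.08 and 0.02. Ndufa13, Uqcrq, Cox6b1 and Cycs encode proteins found in most cells, so a gene below the threshold is not called absent. Single probes were above it for Uqcrq (1 of 3) and Cox7a1 (2 of 3) on the plates labelled AtT20 and for Atp5g1 (1 of 3) on these plates and in BV2.

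**Figure D2:**
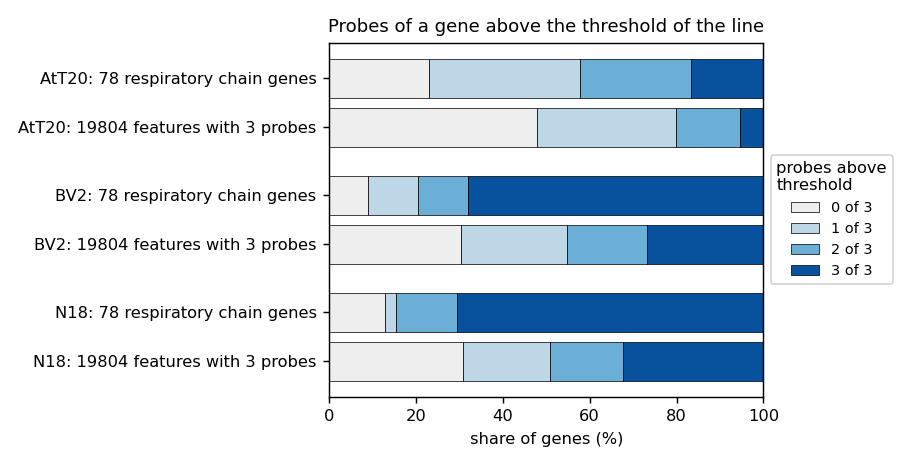
Share of genes (%) with 0, 1, 2 or 3 probes above the threshold of the line, for the 78 respiratory chain genes and for the 19804 features with 3 probes. In BV2 and N18 the class with all 3 probes holds most of the 78 genes (53 and 55), and on the plates labelled AtT20 it holds 13.

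N18 and BV2 cells were compared gene by gene after quantile normalization, which gives every array the same distribution of probe intensities, with limma and Benjamini-Hochberg adjustment over all 25128 features. The fit took 1 variance per gene from all 12 arrays, so the SEs and p-values of this pair also carry the spread of the AtT20 arrays. Of the 78 genes, 40 passed at an adjusted p under 0.05, where 40.9% of all features did. Higher in N18 were 14 genes (background 19.0%) and higher in BV2 were 26 (21.9%). The median difference, N18 minus BV2, was 0.01 on the log2 scale over the 78 genes and -0.06 over all features, and the median size of a difference was 0.33 and 0.25. Differences were modest, with 6 genes passing the test with a difference of at least 1 (9.83% of all features). These were Atp5g3 and Atp5c1 toward N18 (5.48%) and Cox6a2, Ndufv1, Ndufs8 and Ndufc2 toward BV2 (4.35%).

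The split between the directions depended on how arrays were put on a common scale. With the deposited values as they are, 39 genes were higher in N18 and 7 in BV2 (30.7% and 7.58% of all features), and relative to the seminal proteins 36 and 7 (38.8% and 13.1%). The median difference over all features moved to 0.15 and 0.18 on these scales, and that over the 78 genes to 0.50 and 0.53. The 14 genes higher in N18 kept their sign on both scales, but so did all 4775 features higher in N18, so this is nothing particular to them. Of the 26 genes higher in BV2, 18 kept their sign, and of all 5495 such features 4750 did. The other 8 of the 26, Sdhd, Uqcrc1, Uqcrfs1, Uqcr11, Cox5a, Atp5l, Ndufa8 and Ndufb3, turned to N18. On each of these scales 21 of the 40 passed again in the same direction. For this pair the 2 scales differ by the same small amount for every gene, so their signs are not separate checks. Without the plates labelled AtT20 in the normalization and the fit, all 40 genes passed in the same direction, among 20 higher in N18 and 31 higher in BV2 (25.8% and 36.1%). For 37 of the 40 genes all 3 probes had the sign of the gene.

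**Figure D3:**
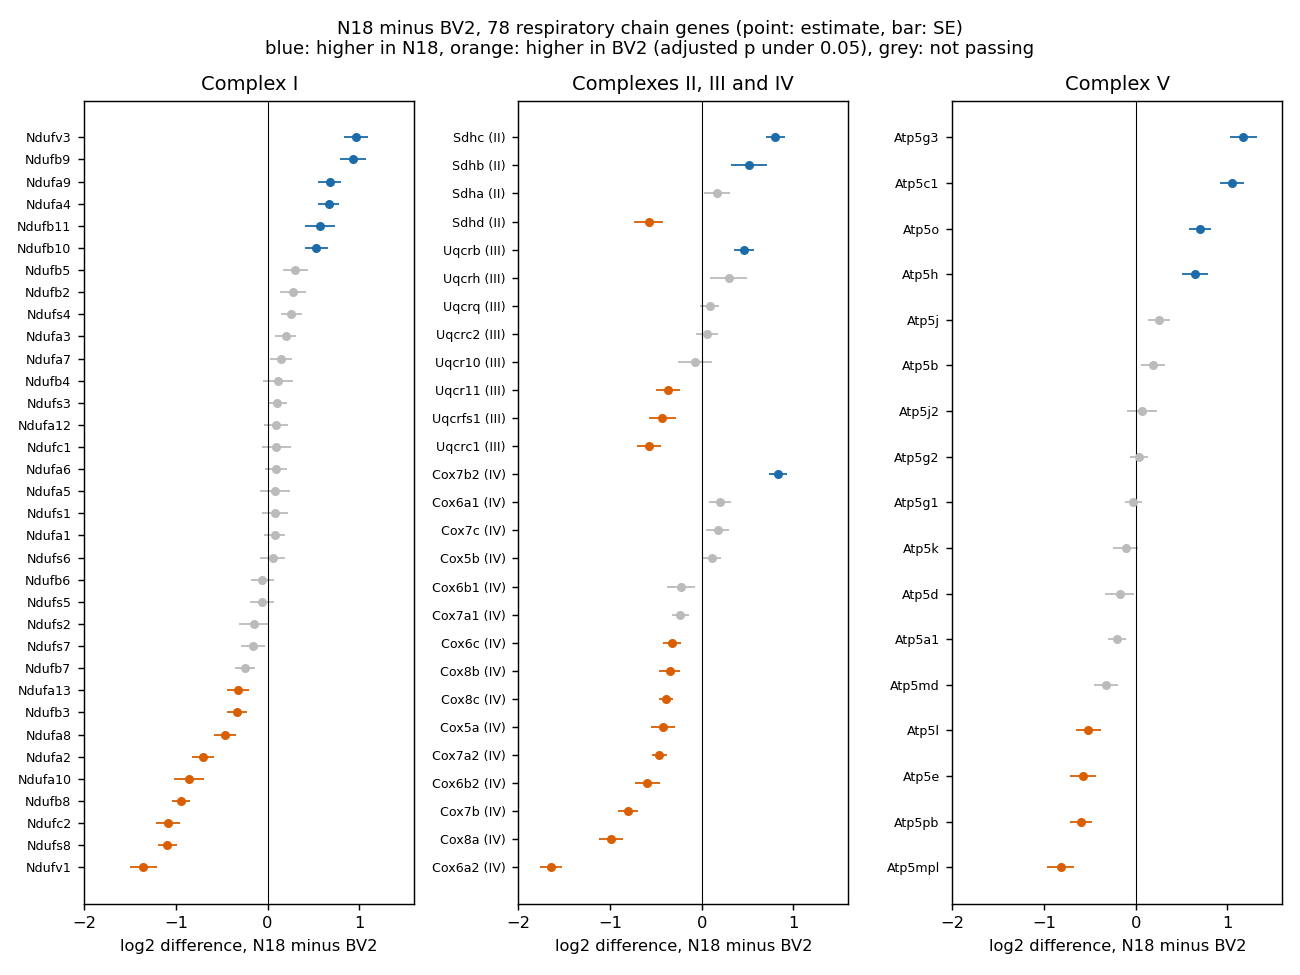
Difference in log2 intensity, N18 minus BV2, for each of the 78 genes after quantile normalization, with its standard error as a bar. Blue genes (14) were higher in N18 and orange genes (26) higher in BV2 at an adjusted p under 0.05, and in complex IV 9 of 15 genes are orange and 1 is blue.

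**Figure D4:**
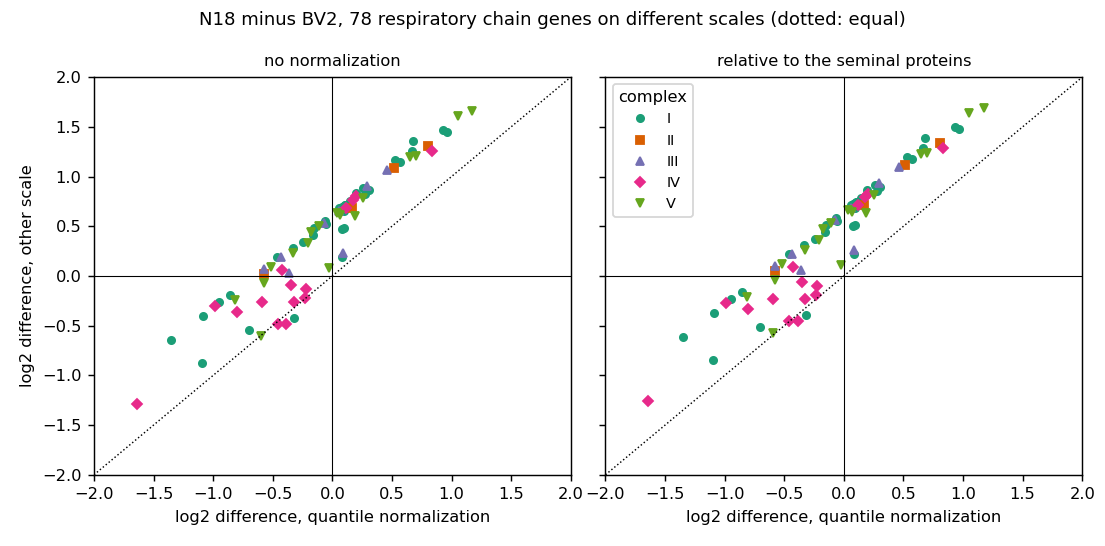
Difference N18 minus BV2 (log2) of the 78 genes after quantile normalization on the horizontal axis, against the same difference with no normalization and relative to the seminal proteins. The median of the 78 genes moves from 0.01 to 0.50 and 0.53, and the points in the upper left corner of each panel are genes whose sign turned.

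In complex I, the NADH dehydrogenase, 6 of 34 genes were higher in N18 and 9 higher in BV2, near the 19.0% and 21.9% of all features. The split became 21 to 3 without normalization (30.7% and 7.58% of all features) and 20 to 3 relative to the seminal proteins (38.8% and 13.1%). Ndufv3, an accessory subunit of the module that binds NADH, read 13.29, 13.55, 13.52 and 13.12 (log2 intensity) on the N18 plates and 12.38, 12.59, 12.21 and 12.44 on the BV2 plates. All N18 plates were above all BV2 plates, and the difference was 0.96 ± 0.13 (SE), or 1.95-fold (adjusted p = 1.5e-05). Its 3 probes did not respond alike, with differences of 0.00, 0.60 and 1.14. Ndufb9, an accessory subunit of the membrane arm, read 12.78, 12.91, 12.73 and 12.19 in N18 and 11.71, 11.92, 11.64 and 11.62 in BV2. Plate 4 of N18 was the lowest of its group but still above every BV2 plate, and the difference was 0.93 ± 0.14 (adjusted p = 6.3e-05). Ndufa9, Ndufa4, Ndufb11 and Ndufb10 were higher in N18 by 0.53 to 0.68. Ndufa4, first assigned to complex I and since found in complex IV, differed by 0.67 ± 0.12 (adjusted p = 0.00019).

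The 2 genes of complex I with the largest differences toward BV2 encode core subunits, among which are those that carry the redox centers. Ndufv1, which holds the NADH site, read 13.97, 14.06, 13.91 and 13.89 in BV2 and 12.61, 12.51, 12.56 and 12.74 in N18. The groups did not overlap, and the gene was 2.55-fold higher in BV2 (-1.35 ± 0.15, adjusted p = 1.8e-06). Relative to the seminal proteins the difference was -0.62 and did not pass (adjusted p = 0.135). Ndufs8, an iron-sulfur subunit, read 11.75, 11.95, 11.77 and 11.83 in BV2 and 10.68, 10.80, 10.76 and 10.68 in N18. It was 2.14-fold higher in BV2 (-1.09 ± 0.10, adjusted p = 2.3e-07), its probes differed by -1.18, -1.10 and -0.97, and it passed on every scale, with -0.87 without normalization and -0.84 relative to the seminal proteins. Ndufc2, an accessory subunit named here after its value was seen, was 2.12-fold higher in BV2 (-1.09 ± 0.13), with probes at -1.60, -0.70 and -0.04, and did not pass on the other scales (-0.40 and -0.37). Ndufb8, Ndufa10 and Ndufa2, also accessory and likewise named afterwards, were 1.93-fold, 1.81-fold and 1.63-fold higher in BV2, and of these Ndufa2 passed on every scale and Ndufb8 and Ndufa10 on this one alone. Of the 6 core genes on the array 2 were higher in BV2 and 0 in N18 (21.9% and 19.0% of all features). The split was 2 to 2 without normalization and 1 to 1 relative to the seminal proteins. Ndufs1, the largest iron-sulfur subunit, differed by 0.08 ± 0.15 (adjusted p = 0.70). Of the 28 accessory genes 6 were higher in N18 and 7 in BV2, which became 19 and 1 without normalization and 19 and 2 relative to the seminal proteins. Of all features, 30.7% were higher in N18 and 7.58% in BV2 without normalization, and 38.8% and 13.1% relative to the seminal proteins.

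Complex II, succinate dehydrogenase, also serves the citric acid cycle. Sdhc, a membrane anchor, read 14.03, 14.25, 14.18 and 14.02 in N18 and 13.39, 13.20, 13.26 and 13.42 in BV2. The groups did not overlap, and Sdhc was 1.74-fold higher in N18 (0.80 ± 0.10, adjusted p = 1.0e-05). Sdhb, the iron-sulfur subunit, read 13.53, 13.89, 13.60 and 13.18 in N18 and 13.03, 13.33, 12.67 and 13.12 in BV2. Its groups overlapped, since plate 2 of BV2 was above plate 4 of N18, and the difference of 0.51 ± 0.20 passed narrowly (adjusted p = 0.046). Sdha, the flavoprotein, differed by 0.17 ± 0.14 and did not pass (adjusted p = 0.38). Sdhd, the other anchor, differed by -0.58 ± 0.16 (adjusted p = 0.0083), and by 0.02 without normalization.

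In complex III, the cytochrome bc1 complex, 1 of 8 genes was higher in N18 and 3 in BV2 (19.0% and 21.9% of all features). On both other scales 3 were higher in N18 and 0 in BV2. The shares of all features were 30.7% and 7.58% without normalization and 38.8% and 13.1% relative to the seminal proteins. Uqcrb, a small subunit near the quinone site, read 13.03, 13.22, 13.14 and 12.89 in N18 and 12.58, 12.64, 12.58 and 12.64 in BV2, without overlap (0.46 ± 0.11, adjusted p = 0.0022). Uqcrc1, a core protein, and Uqcrfs1, the Rieske iron-sulfur protein, differed by -0.58 ± 0.13 and -0.43 ± 0.15, and both turned sign on the other scales, to 0.07 and 0.19 without normalization. Uqcrc2, the other core protein, differed by 0.06 ± 0.12 (adjusted p = 0.74).

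Complex IV, cytochrome c oxidase, had 1 of 15 genes higher in N18 and 9 higher in BV2, where 19.0% and 21.9% of all features were. On both other scales 8 of the 9 kept their sign but 3, Cox6a2, Cox7a2 and Cox8c, kept their call. The split became 4 to 3 without normalization (30.7% and 7.58% of all features) and 3 to 3 relative to the seminal proteins (38.8% and 13.1%). Cox6a2, the form of subunit VIa known from heart and skeletal muscle, read 12.45, 12.69, 12.51 and 12.74 in BV2 and 10.87 to 11.01 on the 4 N18 plates. The groups lay far apart, and the gene was 3.12-fold higher in BV2 (-1.64 ± 0.12, adjusted p = 5.9e-09). Its probes differed by -2.41, -1.01 and -0.15. Cox6a1, the form found in most tissues, differed by 0.20 ± 0.12 (adjusted p = 0.20).

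Cox8a, the form of subunit VIII found in most tissues, read 13.99, 14.20, 13.88 and 14.01 in BV2 and 12.84, 13.27, 13.14 and 12.88 in N18. It was 1.98-fold higher in BV2 without overlap (-0.99 ± 0.13, adjusted p = 1.1e-05), and the difference shrank to -0.30 without normalization (adjusted p = 0.332). Cox8b, the muscle form, differed by -0.35 ± 0.11 (adjusted p = 0.022). Cox7b, a small subunit, read 11.86 to 12.07 in BV2 and at most 11.36 in N18 and was 1.74-fold higher in BV2 (-0.80 ± 0.11, adjusted p = 1.4e-05), but not past the test without normalization (-0.36) or relative to the seminal proteins (-0.33). Cox7b2, a relative of Cox7b known from testis, went the other way, with 10.60, 10.85, 10.65 and 10.46 in N18 and 9.80, 9.87, 9.80 and 9.77 in BV2. It was above the threshold in N18 alone, with 2 of 3 probes, and passed on every scale (adjusted p = 1.8e-06). Since none of its probes was above the threshold in BV2, the difference has only a lower bound, 0.11 on the log2 scale.

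Cox6b2, the testis form of subunit VIb, was 1.51-fold higher in BV2 (-0.59 ± 0.14, adjusted p = 0.0028) but did not pass on the other scales or with the middle probe, while Cox6b1 was below the threshold in every line. Cox6c, Cox7a2 and Cox8c passed toward BV2 but were below the threshold in both BV2 and N18, so no size is given. Cox5b, which binds zinc, differed by 0.11 ± 0.10 (adjusted p = 0.39), and Cox5a by -0.42 ± 0.13, with a sign that turned without normalization (0.06). Cox4i1 and Cox4i2, the forms of subunit IV, fall outside the symbol rule and differed by 0.25 ± 0.11 and 0.17 ± 0.13, neither of which passed.

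In complex V 4 of 17 genes were higher in N18 and 4 in BV2, near the 19.0% and 21.9% of all features. On both other scales 8 and 1 were, where all features were at 30.7% and 7.58% without normalization and 38.8% and 13.1% relative to the seminal proteins. Atp5g3, 1 of 3 genes for the same mature c subunit of the rotor ring, read 13.92, 14.35, 13.99 and 14.13 in N18 and 13.07, 12.95, 12.59 and 13.11 in BV2. The groups did not overlap, and Atp5g3 was 2.25-fold higher in N18 (1.17 ± 0.15, adjusted p = 5.8e-06), with probes at 1.01, 1.10 and 1.39. Atp5g2 differed by 0.04 ± 0.09 (adjusted p = 0.79), and Atp5g1 was below the threshold in all lines. Atp5c1, the central stalk subunit gamma, read 13.04, 13.43, 13.19 and 13.18 in N18 and 12.18, 12.15, 11.93 and 12.37 in BV2. It was 2.07-fold higher in N18 without overlap (1.05 ± 0.13, adjusted p = 5.8e-06). Atp5a1 and Atp5b, the catalytic head subunits alpha and beta, differed by -0.21 ± 0.10 (adjusted p = 0.10) and 0.19 ± 0.13 (adjusted p = 0.28).

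Atp5o and Atp5h, subunits of the peripheral stalk, were 1.63-fold and 1.57-fold higher in N18. Atp5mpl, a small membrane subunit, read 12.69, 12.55, 12.54 and 12.74 in BV2 and 11.79, 11.91, 11.76 and 11.79 in N18 (-0.82 ± 0.15, adjusted p = 0.0003), and did not pass on the other scales (-0.25 and -0.22). Atp5pb, another stalk subunit, passed toward BV2 (adjusted p = 0.00076) but was below the threshold in N18, and no lower bound above 0 could be given for its difference. Atpif1, the inhibitor of ATP synthase, differed by -0.65 ± 0.14 (adjusted p = 0.00095), and by -0.08 without normalization.

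**Figure D5:**
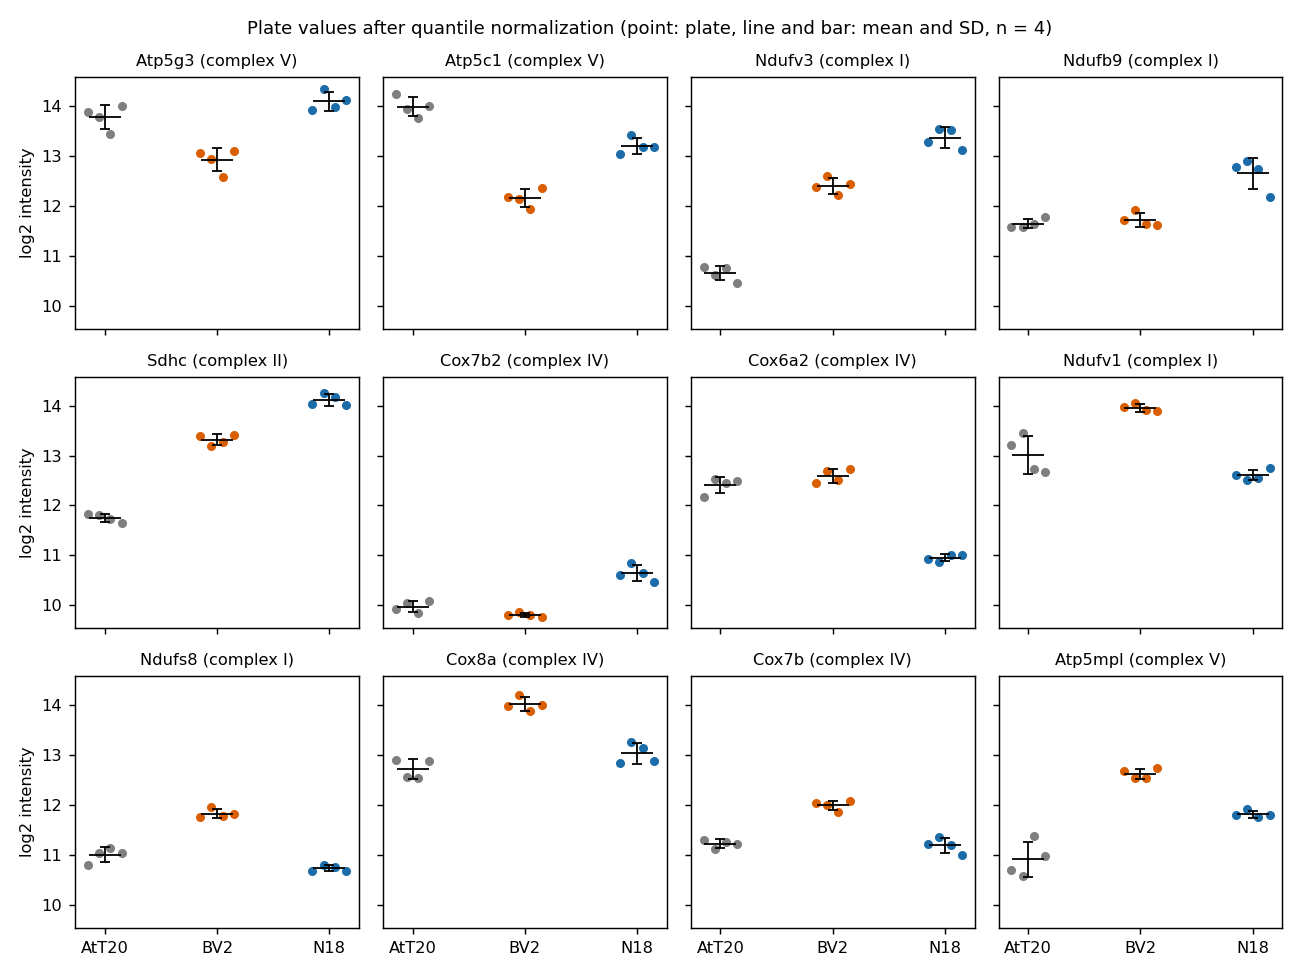
Log2 intensity after quantile normalization on each of the 4 plates of each line for 12 genes named in the text, with the mean and SD in black. The first 6 genes were higher in N18 than in BV2 and the last 6 higher in BV2.

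The promoters of these genes are known to hold sites for NRF1, for GABP, an ETS factor, and for YY1. Promoter sequences (250 bases before to 50 after a start, RefSeq on GRCm38.p6) were matched for 65 of the 78 genes. The NRF1 motif GCGCANGCG was found on either strand in 19 of them (29.2%, against 9.63% of all protein-coding genes with a promoter), CCGGAAG for ETS factors in 17 (26.2%, against 13.0%) and AANATGGCG for YY1 in 10 (15.4%, against 3.64%). Among the genes higher in N18, 5 of 11 with a promoter held the NRF1 motif and 2 the ETS motif, and among those higher in BV2, 5 and 6 of 21. By complex, the NRF1 motif was in 7 of 15 promoters of complex V, 7 of 30 of complex I and 1 of 12 of complex IV. A gene with more than 1 promoter was counted if any of them held the motif. Matches of different motifs overlapped in 0 of the promoters checked, the first listed for each gene. These matches are letters in a window and not bound sites. Among the genes whose promoter held a motif, the 2 with the largest difference toward each line are printed below, with the motif in capitals. Genes with larger differences, such as Cox6a2 and Ndufv1, are not among them. All 4 lie on the minus strand, Atp5g3 at chr2:73911277-73911576, Atp5c1 at chr2:10080383-10080682, Ndufs8 at chr19:3912725-3913024 and Cox8a at chr19:7217567-7217866. Another listed promoter of Atp5c1, at chr2:10080461-10080760, held no motif and is not printed. Capitals mark the NRF1 motif in Atp5c1, the same motif read on the opposite strand in Atp5g3, and the ETS motif, also read on the opposite strand, in Ndufs8 and, at 2 places, in Cox8a.
Atp5g3: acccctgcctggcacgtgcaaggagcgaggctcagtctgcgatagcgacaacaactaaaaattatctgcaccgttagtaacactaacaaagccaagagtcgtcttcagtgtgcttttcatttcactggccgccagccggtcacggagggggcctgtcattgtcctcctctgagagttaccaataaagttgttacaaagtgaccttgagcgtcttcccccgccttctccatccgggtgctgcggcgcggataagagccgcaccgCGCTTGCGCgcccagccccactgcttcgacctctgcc
Atp5c1: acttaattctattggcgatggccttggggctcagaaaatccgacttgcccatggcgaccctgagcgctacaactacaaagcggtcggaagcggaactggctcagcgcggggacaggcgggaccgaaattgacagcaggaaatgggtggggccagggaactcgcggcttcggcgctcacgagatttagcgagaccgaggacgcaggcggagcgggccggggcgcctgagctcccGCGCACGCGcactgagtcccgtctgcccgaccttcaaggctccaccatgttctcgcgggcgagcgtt
Ndufs8: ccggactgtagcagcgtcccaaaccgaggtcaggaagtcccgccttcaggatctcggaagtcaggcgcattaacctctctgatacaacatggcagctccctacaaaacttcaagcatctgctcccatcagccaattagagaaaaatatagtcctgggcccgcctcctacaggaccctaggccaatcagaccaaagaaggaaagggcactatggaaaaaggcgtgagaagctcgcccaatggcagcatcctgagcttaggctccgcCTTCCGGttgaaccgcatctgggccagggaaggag
Cox8a: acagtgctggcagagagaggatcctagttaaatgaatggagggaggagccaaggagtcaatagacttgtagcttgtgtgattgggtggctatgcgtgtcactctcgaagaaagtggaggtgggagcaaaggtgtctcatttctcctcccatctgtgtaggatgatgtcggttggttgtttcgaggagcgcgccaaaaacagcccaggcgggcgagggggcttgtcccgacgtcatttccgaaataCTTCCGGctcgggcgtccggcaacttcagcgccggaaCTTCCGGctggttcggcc

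The comparisons with the plates labelled AtT20 share those 4 plates, so they are not independent of each other. BV2 differed from these plates in 62 of the 78 genes (73.6% of all features), with 38 higher in BV2 (26.6%) and 24 higher on the plates labelled AtT20 (47.0%). N18 differed from them in 65 (76.4%), with 37 higher in N18 (27.8%) and 28 higher on the plates labelled AtT20 (48.6%). The median difference over the 78 genes was 0.29 for BV2 and 0.18 for N18, against -0.23 and -0.25 over all features. Relative to the seminal proteins the splits became 58 to 6 and 63 to 6 (50.4% to 17.6% and 60.7% to 16.3% of all features), and without normalization 29 to 29 and 37 to 24 (11.7% to 74.7% and 19.9% to 63.1%). When the middle probe stood for the gene they were 43 to 15 and 42 to 18 (29.1% to 35.8% and 31.0% to 37.0%). Differences of at least 1 that passed were 26 toward BV2 and 8 toward the plates labelled AtT20, 34 in all (12.5%, 15.7% and 28.3%), and for N18 24 and 11, 35 in all (13.2%, 18.2% and 31.4%). All 3 probes had the sign of the gene for 32 of the 62 and 36 of the 65. The part of the narrow intensity range of these plates in the differences was not tested.

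In complex II all 4 genes were higher in BV2 and in N18 than on the plates labelled AtT20 (26.6% and 27.8% of all features). On those plates 0 of the 4 had all 3 probes above the threshold, 1 had 2 and 3 had 1. Sdhc read 11.83, 11.81, 11.72 and 11.65 on the plates labelled AtT20, below all plates of BV2 and N18, and the differences were 1.56 ± 0.10 for BV2 and 2.37 ± 0.10 for N18. Sdha differed by 1.52 and 1.69 and Sdhb by 1.81 and 2.32. The probes of Sdhb had levels of -0.22, 0.87 and 0.32 on the plates labelled AtT20, near their threshold of 0.37, so the size of its differences is uncertain. Sdhd, which did not reach the threshold on those plates, was at least 2.1-fold higher in BV2 and at least 1.6-fold higher in N18, taking the smallest bound of the 3 scales. All 4 also passed in both comparisons without normalization, relative to the seminal proteins and with the middle probe.

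Some genes with high levels in BV2 and N18 were at the level of the seminal proteins on the plates labelled AtT20. Uqcrc2 read 10.18, 9.84, 9.72 and 9.74 on those plates, 13.76, 13.89, 14.12 and 14.01 in BV2 and 13.93, 14.01, 14.04 and 14.03 in N18. Its level on the plates labelled AtT20 was -0.19, with 0 of 3 probes above the threshold, and it was at least 5.0-fold higher in BV2 and at least 6.6-fold higher in N18, where the bound sets the gene at the threshold of the plates labelled AtT20 and takes the smallest value of the 3 scales. Atp5o, with 1 of 3 probes going the other way, was at least 3.2-fold and 6.7-fold higher, and Atp5h, whose 3 probes all had the same sign, at least 2.9-fold and 5.4-fold. Atp5b was above the threshold there with 1 of 3 probes and differed by 3.16 and 3.35, but its probes disagreed, with -0.48, 2.47 and 4.79 for BV2.

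Higher on the plates labelled AtT20 was Uqcr11, a small subunit of complex III, with 12.69, 12.76, 12.73 and 13.17 against 10.93, 11.06, 11.02 and 10.69 in BV2 and 10.51, 10.63, 10.72 and 10.38 in N18. The differences were -1.92 and -2.28, and their sign was the same on all 3 scales and for all 3 probes, of which 1 was above the threshold. Atp5c1 was higher there than in BV2 (-1.83) on all 3 scales, but against N18 (-0.78) it turned to 0.88 relative to the seminal proteins. Ndufs6 (-1.62 and -1.56) and Atp5l (-1.28 and -1.80) owed their sign to 1 probe in the comparison with BV2, where the other 2 probes were higher in BV2.

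Genes that serve the same pathway were counted from lists of textbook members, for N18 against BV2. Assembly factors of the 5 complexes were higher in N18 for 6 and higher in BV2 for 10 of 38, genes of coenzyme Q synthesis for 2 and 7 of 12, of the citric acid cycle for 3 and 3 of 13, of mitochondrial import and carriers for 3 and 8 of 13, of the mitochondrial ribosome for 12 and 23 of 77, and regulators of mitochondrial genes for 4 and 5 of 15, where 19.0% and 21.9% of all features were. These splits turned toward N18 on the other scales, as did that of all features. The shares of all features became 30.7% and 7.58% without normalization and 38.8% and 13.1% relative to the seminal proteins. Assembly factors became 11 and 3 without normalization and 19 and 3 relative to the seminal proteins. In the same order coenzyme Q became 4 and 0 and 5 and 0, the citric acid cycle 6 and 0 and 5 and 0, and import 5 and 1 and 5 and 0. The ribosome became 31 and 13 and 38 and 11, and regulators 6 and 1 and 8 and 1. Slc25a4, an ADP/ATP carrier, was 1.85 ± 0.12 higher in N18 (log2), and Cs, citrate synthase, 1.00 ± 0.10. Toward BV2 were Cox18, which inserts a complex IV subunit into the membrane (-1.56 ± 0.11), Mrpl11 of the mitochondrial ribosome (-1.48 ± 0.12) and Tomm40, the import pore (-1.42 ± 0.16), and each kept its sign on both other scales, though Tomm40 did not pass relative to the seminal proteins (adjusted p = 0.0696).

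Among the regulators, Nrf1 differed by -0.09 ± 0.19 (adjusted p = 0.74). Gabpa (0.29 ± 0.11, adjusted p = 0.04) and Tfam, which packages mitochondrial DNA (0.29 ± 0.11, adjusted p = 0.041), were higher in N18. Esrra, a nuclear receptor that acts on these genes, was higher in BV2 (adjusted p = 0.0011) and below the threshold in N18. Cyc1, the cytochrome c1 of complex III, was 0.51 ± 0.12 higher in N18 and falls outside the symbol rule.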

How the data were processed

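Total RNA from 12 plates (3 lines, 4 plates each, named by the labels) was copied to Cy3-labelled cDNA and hybridized to 60-mer arrays of 72000 probes. The deposited values are log2 intensities, 1 per probe and array, made by the authors from the Cy3 signal, and their distributions differed between arrays, so no normalization between arrays was assumed. Probes were grouped into 25631 targets, of which 69.4% matched a symbol through RefSeq names. The members and lists were chosen with earlier results of these data known.

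Probes were quantile normalized over the 12 arrays, averaged on the linear scale and compared with limma 3.58.1 (lmFit, eBayes with a trend) in R 4.3.3, with Benjamini-Hochberg adjustment over 25128 features and an adjusted p under 0.05. The step was tested on simulated data. The comparisons were repeated with the deposited values left unscaled, with the mean of log2 or the median of the probes of a target, with levels over the seminal proteins, after normexp (offset 50), with genes under the threshold removed, with a minimum difference of 1, with the plate number as a block, with the arrays of the other line removed, with the brightest target of a gene, and without each plate. The brightest target could not change the values of the 78 genes, since each has 1 target. Detection was also tried with olfactory receptor genes as controls, 3 SD, all 4 plates above the threshold and quantile normalization.

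Genes named were the 2 with the largest difference N18 against BV2 in each direction and complex, all Sdh genes, the isoform and core genes, the 3 with the largest difference in each direction against the plates labelled AtT20 that kept their sign on all scales, and, from each list, the extremes and known regulators. Not all of these are described, and among those left out are Ppargc1a, Ppargc1b and Cox7a2 against the plates labelled AtT20. Other genes were named after their values were seen. Precision is limited by the signal above background and by 4 plates a line, and p-values cover the spread between those plates. Tables and figures were made with Python 3.11.15, pandas 2.3.3, numpy 2.4.6 and matplotlib 3.10.9. A count over the corticotroph marker list is not reported here.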

Additional observations from a re-analysis of the deposited data

Results flagged for a closer look

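In 120 sets of 4 plates (40 named genes of the respiratory chain in 3 lines), 4 had a plate far from the other 3 by Dixon's criterion, where chance gives about 1 in 20, and all 4 were on the plates labelled AtT20. Atp5pb read 10.88 on plate 1, against 11.30 to 11.35 on the others. Uqcrh, the hinge protein of complex III, read 9.76 on plate 1, against 10.64 to 10.77. Cox6b1 read 9.75 on plate 3, against 10.52 to 10.62. Uqcr11 read 13.17 on plate 4, against 12.69 to 12.76, and all 4 of its plates were above every BV2 and N18 plate.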

How the results depend on the processing

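For N18 against BV2 the number of genes that passed was 34 to 44 when 1 plate was left out (13 to 15 higher in N18, 21 to 29 higher in BV2). Apart from the minimum difference of 1, 12 of the 14 genes higher in N18 but 5 of the 26 higher in BV2 kept their call under every alternative in which they were tested. Among the 5 were Cox8c, below the threshold in every line, and Atp5pb, below it in N18. The 2 directions were not on an equal footing here. Without normalization and relative to the seminal proteins the median of all features moved toward N18, from -0.06 to 0.15 and 0.18. All 4775 features higher in N18 kept their sign on both scales, and 4750 of the 5495 higher in BV2 did. The count under every alternative was not made over all features. No normalization gave 39 higher in N18 and 7 higher in BV2, the seminal proteins 36 and 7, and a difference of at least 1 left 6 genes (2 and 4). For BV2 against the plates labelled AtT20, leaving out a plate gave 59 to 63 genes (38 to 40 higher in BV2, 21 to 25 lower). The seminal proteins gave 58 higher in BV2 and 6 lower, the median of probes left 15 lower, and a difference of at least 1 left 34, of which 8 were lower. For N18 against the plates labelled AtT20, leaving out a plate gave 62 to 67 (36 to 39 higher in N18, 26 to 29 lower). The seminal proteins gave 63 and 6, the median of probes left 18 lower, and a difference of at least 1 left 35 (24 and 11). Above the threshold were 44 to 53 genes on the plates labelled AtT20, 68 to 69 in BV2 and 67 to 68 in N18 without 1 plate.

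Signs that turned for N18 against BV2, without normalization and relative to the seminal proteins, were those of Sdhd (0.0242 and 0.054), Uqcrc1 (0.0687 and 0.0985), Uqcrfs1 (0.186 and 0.216), Cox5a (0.0556 and 0.0854), Uqcr11 (0.0297 and 0.0595), Atp5l (0.0859 and 0.116), Ndufa8 (0.187 and 0.216), Ndufb3 (0.284 and 0.314) and Sdhaf2 (0.00371 and 0.0335). With the median of probes Ndufs6 (0.00814) and Atp5l (0.435) turned for BV2 against the plates labelled AtT20, and Ndufs6 (0.050) for N18. Relative to the seminal proteins Atp5c1 (0.88) and Ndufs6 (0.0907) turned for N18 against those plates. The cause was not tested.

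Deviations of plates of the same number from their line means correlated at -0.11 to 0.32, the highest for plate 2 of N18 and BV2. These values cannot show whether plates shared a slide or batch, and the plate number was not treated as a pairing. With it as a replicate block, 38 genes passed for N18 against BV2 (14 and 24), 62 for BV2 (38 and 24) and 64 for N18 (37 and 27) against the plates labelled AtT20.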
